A study of Homo sapiens with 9 samples.

Results

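Torcetrapib was compared directly with angiotensin II at the same concentration and time in H295R, a steroid-producing cell line from a human carcinoma of the adrenal cortex. Cells had received 100 nM torcetrapib for 3 h (3 arrays), 100 nM angiotensin II for 3 h (3 arrays) or DMSO, the control, for 3 h (3 arrays). The comparison rests on 6 of the 9 arrays of the series, chosen by the agent named in the sample labels, where torcetrapib appears under its code CP-529414 with the marks CETP+ /BP+ THQ+. The DMSO arrays, labelled as control and called the vehicle here, are the reference for both treatments. They show for each gene whether the hormone, the drug or both had left the vehicle level. The series design asked whether CETP inhibitors switch on the renin-angiotensin-aldosterone system in adrenal cells. Nothing in the labels shows that replicate arrays are separate cultures, and p-values here take in only the spread between arrays, which may be technical. The cells are a tumour line in culture. As far as the labels say, the angiotensin II and torcetrapib arrays differ in agent and in the group letter and serial numbers of their titles.

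Angiotensin II is the effector peptide of the renin-angiotensin-aldosterone system. In the outer zone of the adrenal cortex it binds the type 1 angiotensin receptor, a Gq-coupled receptor, and through phospholipase C raises intracellular calcium and activates protein kinase C, which within minutes to hours induces immediate early genes and aldosterone synthesis. Torcetrapib was developed to block CETP, the cholesteryl ester transfer protein, which moves lipids between lipoproteins in plasma, and its development ended after it raised blood pressure and aldosterone in trials.

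Values are log2 expression, so a difference of 1 is a 2-fold change, and every difference between the treatments is torcetrapib minus angiotensin II: negative values are higher with the hormone and positive values higher with the drug. Errors are standard errors (SE) of a difference over 3 arrays per group, and adjusted p-values are from limma with Benjamini-Hochberg adjustment over all genes. Each of 19775 genes was read from its brightest probe set. Many genes have further probe sets, which read other stretches of the transcripts, and a gene is said to agree where all its probe sets differ in the same direction. The median difference over all genes was -0.04.

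Of these genes 2232 (11.3%) passed an adjusted p of 0.05, with 1321 (6.68%) higher with angiotensin II and 911 (4.61%) higher with torcetrapib. The torcetrapib and angiotensin II arrays did not overlap for 2213 of the 2232, against 28.6% of all genes. Differences of at least 2-fold were mostly on the hormone's side, 84 genes against 24. Against DMSO, 1210 genes (6.12%) passed with angiotensin II and 229 (1.16%) with torcetrapib. The count higher with torcetrapib was 531 without angiotensin II replicate 2, 532 without torcetrapib replicate 1, 544 without torcetrapib replicate 2 and 587 without torcetrapib replicate 3. The total was 1425 without torcetrapib replicate 1 and 1351 without torcetrapib replicate 3, and the count higher with angiotensin II was 764 without torcetrapib replicate 3.

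Probe sets of a gene often disagreed. Among the 1433 genes past the threshold that had at least 2 probe sets, all sets pointed the same way in 754 (52.6%), 406 higher with angiotensin II and 348 higher with torcetrapib. The same held for 42.8% of all genes with at least 2 probe sets and for 41 of 52 (78.8%) where the difference was 2-fold or more. The number in agreement was 470 without torcetrapib replicate 1 and 474 without torcetrapib replicate 3. A further 799 genes had a single probe set, which allows no such check, and 679 disagreed. The balance between the sides differed with the probe sets read: 59.2% of the genes past the threshold were higher with angiotensin II by the brightest probe set, 42.4% by the mean of a gene's probe sets and 37.7% of single probe sets when each was tested for itself. Counts over a list below include every member past the threshold and say how many of these have probe sets that disagree. Beside them stand the shares of all genes, 6.68% higher with angiotensin II and 4.61% with torcetrapib. A count near these shares is no result about a list. Genes are named, other than where stated, only if they agree or have a single probe set. Probe sets whose names end in _x_at or _s_at may bind transcripts of several genes or several forms of a gene. Where their removal ended a call and changed the value, the value without them is given. Genes that have only such probe sets could not be checked in this way. NFKBIZ, TXNIP, NR4A2, EGR1, JUND, SRF, BHLHE40, IER3, LYVE1, CDKN1A and AGTR1 are among them.

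The arrays also differed in a sign of RNA quality. A 5′ to 3′ index, the mean for the ACTB and GAPDH control probe sets of the signal near the 5′ end minus that near the 3′ end, averaged -0.62 ± 0.02 (SD, n = 3) with angiotensin II, -0.24 ± 0.03 with torcetrapib and -0.50 ± 0.22 with DMSO. The treatments differed by 0.37 and did not overlap (exact two-sided permutation test, p = 0.1, the smallest that 3 against 3 arrays allow). DMSO replicate 2, at -0.28, lay at the level of the torcetrapib arrays, and DMSO replicates 1 and 3 were at -0.72 and -0.50. DMSO replicate 2 was the highest DMSO array for 46.9% of the 911 genes higher with torcetrapib, against 26.7% of all genes, and the lowest for 74.3% of the 1321 genes higher with angiotensin II, against 44.1% of all. With the index as a further term in the model, 280 genes (1.42%) passed, 190 higher with angiotensin II and 90 higher with torcetrapib, and 258 of these were among the 2232. Among the genes called in both models, DMSO replicate 2 was the lowest DMSO array for 78.3% of the 69 higher with torcetrapib. The share was 64.6% of the 189 higher with angiotensin II. Within groups the index varied mostly among the DMSO arrays, so its term rests largely on these 3 arrays. The index separates the 6 compared arrays by treatment, and the median SE of the 2232 genes rose from 0.07 to 0.12 in that model. Each group of genes is therefore given with its count in both models, and the part of RNA quality in the other differences was not tested further.

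**Figure D1:**
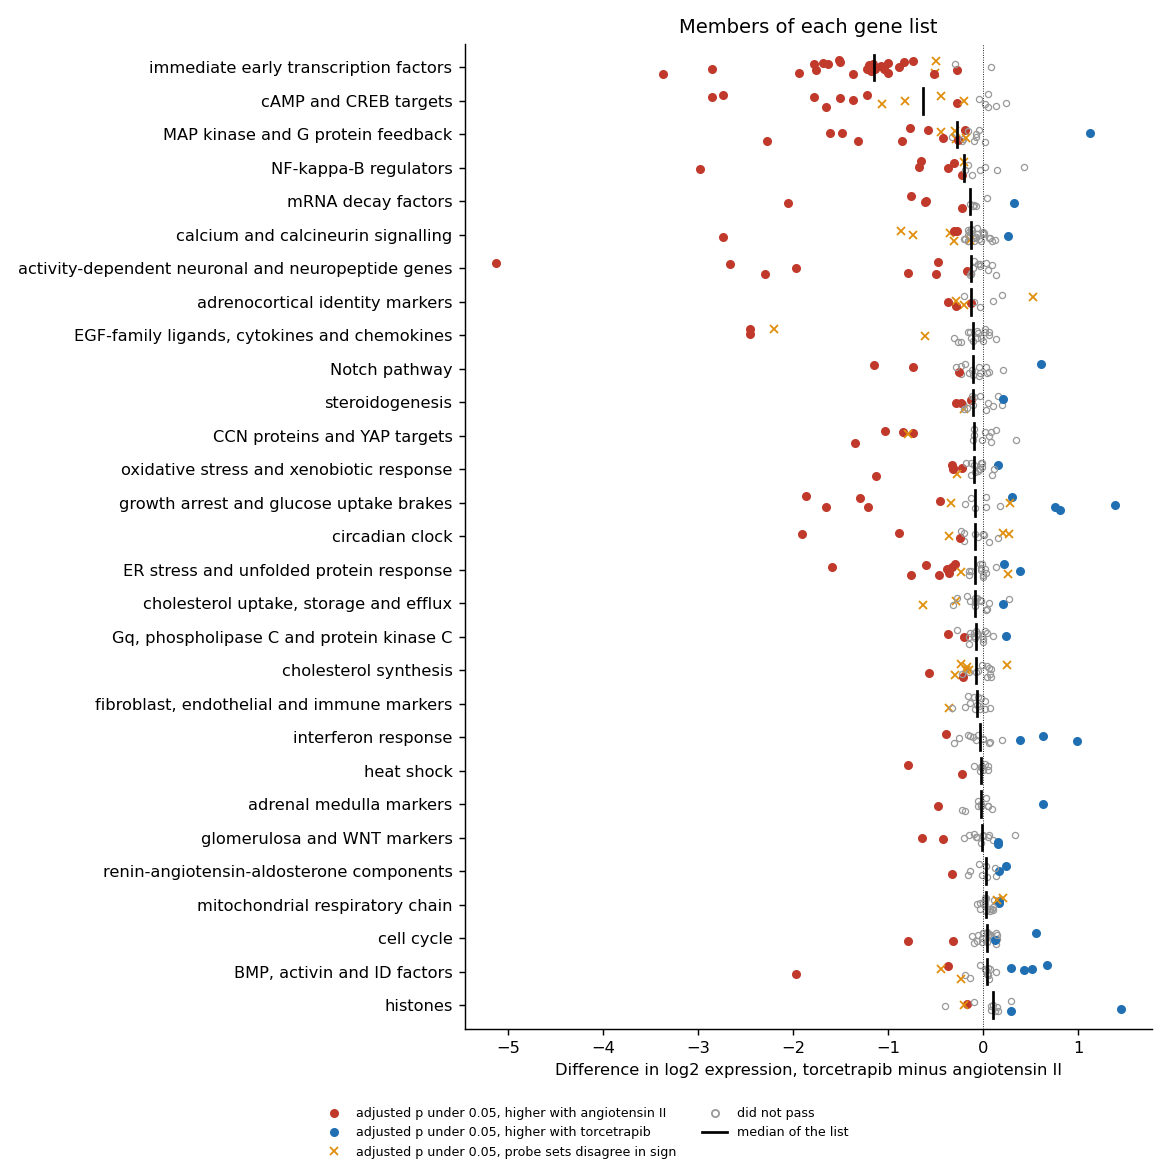
Each point is a measured member of a gene list, placed by its difference in log2 expression, torcetrapib minus angiotensin II, with the lists ordered by their median (black bar). The immediate early transcription factors stand furthest to the left with a median of -1.15, and the DUSP6 point at 1.12 is the exception among the MAP kinase and G protein feedback genes.

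The functions that separated the hormone from the drug most were those of the immediate early response, the genes that cells switch on first after a stimulus without needing new protein. Of 28 measured immediate early transcription factors 26 were higher with angiotensin II and none with torcetrapib, with a median difference of -1.15. Among the 26 the probe sets of FOSL2 and KLF6 disagreed, and MYC (0.08) and KLF5 (-0.30) did not pass. With the index in the model 24 of them passed. Against DMSO the list's median was 1.26 with angiotensin II and 0.26 with torcetrapib.

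NPAS4, a transcription factor that neurons induce when calcium enters, differed most of all genes that agree. It stood at 10.36, 10.13 and 10.56 with angiotensin II, at 4.98, 5.45 and 5.25 with torcetrapib and at 5.16, 5.45 and 4.99 with DMSO. The torcetrapib arrays thus lay among the DMSO arrays and all angiotensin II arrays far above them. The difference was -5.12 ± 0.14, or 34.8-fold (adjusted p = 2.31e-12), and torcetrapib minus DMSO was 0.03 (adjusted p = 0.962). The second probe set of NPAS4 differed by -0.47.

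FOSB, a partner of JUN proteins in the AP-1 factor, was at 11.21, 11.35 and 11.19 with angiotensin II and at 7.89 ± 0.17 (SD, n = 3) with torcetrapib, 10.3-fold apart. Its DMSO arrays read 7.70, 7.07 and 7.38, so its lowest torcetrapib array, at 7.70, touched the vehicle range, and torcetrapib minus DMSO was 0.50 (adjusted p = 0.064). FOS itself was at 9.33, 9.42 and 9.37 with angiotensin II, at 7.59 on each torcetrapib array and at 6.53, 6.59 and 6.53 with DMSO. The 3 groups of FOS values were clear of each other, with the drug 1.04 above the vehicle (adjusted p = 1.98e-07) and a difference of -1.78 from the hormone. Both genes have a single probe set.

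ATF3, a stress-induced factor that binds cAMP response elements, read 10.88, 10.89 and 10.91 with angiotensin II, 7.99, 8.13 and 7.99 with torcetrapib and 7.06, 7.06 and 7.26 with DMSO. Its difference was -2.86 ± 0.07 (adjusted p = 9.98e-13), and its 3 probe sets ran from -2.86 to -0.25. MAFF, a small MAF protein, differed by -1.69 and IER3, a survival factor named for its early induction, by -1.94. Torcetrapib minus DMSO was 0.41 for MAFF (adjusted p = 0.0217) and 0.09 for IER3 (adjusted p = 0.81).

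**Figure D2:**
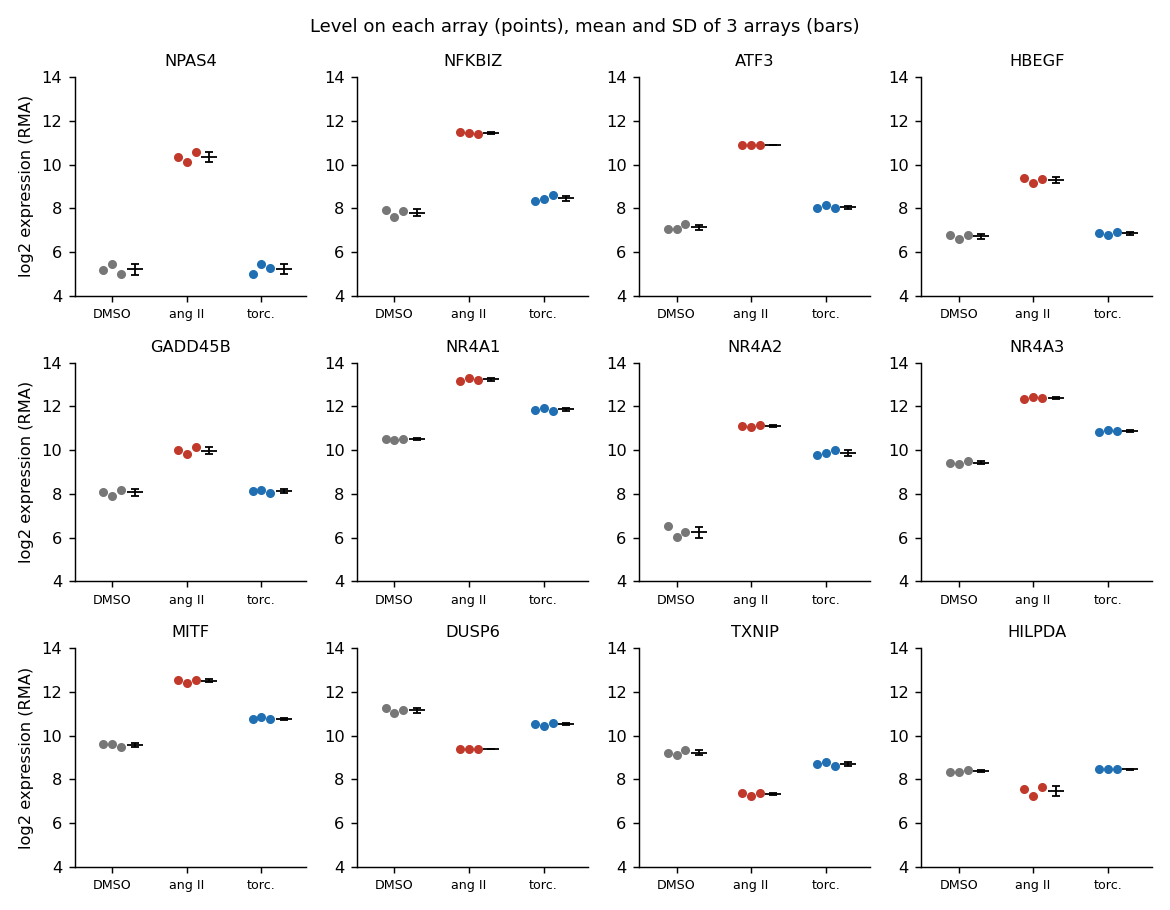
Log2 expression on each array (points) with the mean and SD of 3 arrays (bars) for 12 genes after DMSO, angiotensin II (ang II) and torcetrapib (torc.). NPAS4, HBEGF and GADD45B lie at the DMSO level with torcetrapib, the NR4A genes and MITF lie between DMSO and angiotensin II, and DUSP6, TXNIP and HILPDA are lowest with angiotensin II.

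The NR4A receptors, orphan nuclear receptors that angiotensin II induces in adrenal cells and that bind the promoters of steroid enzyme genes, showed a different arrangement: both treatments raised all 3, the hormone more. NR4A2 was at 6.51, 6.01 and 6.23 with DMSO, at 9.76, 9.85 and 10.03 with torcetrapib and at 11.09, 11.06 and 11.14 with angiotensin II. It was thus 3.63 above vehicle with the drug and 4.85 with the hormone, both from the same DMSO arrays, and its difference was -1.22 ± 0.10 (adjusted p = 7.99e-07). Its 3 probe sets ran from -1.32 to -1.15. NR4A1 read 11.83, 11.95 and 11.81 with torcetrapib and 13.18, 13.29 and 13.23 with angiotensin II, 2.59-fold apart. The probe sets of NR4A1 ran from -1.37 to -0.21, and without _x_at and _s_at probe sets the -0.21 did not pass. NR4A3 read 10.83, 10.91 and 10.90 with torcetrapib and 12.33, 12.44 and 12.38 with angiotensin II, 2.84-fold apart, with probe sets from -1.51 to -0.35. The DMSO arrays of NR4A1 lay between 10.44 and 10.53 and those of NR4A3 between 9.35 and 9.50, below every treated array.

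Torcetrapib and angiotensin II both raised GEM, TRIB1, MITF, NFIL3 and CCN1 as well, and angiotensin II raised each further. GEM, a small GTPase that restrains calcium channels and is a CREB target, was 1.47 above DMSO with torcetrapib and 4.21 with angiotensin II, a difference of -2.74. MITF, a bHLH factor better known from melanocytes, read 10.76, 10.84 and 10.75 with torcetrapib and 12.55, 12.43 and 12.57 with angiotensin II, and 9.63, 9.60 and 9.49 with DMSO. All 3 of its probe sets differed by between -1.84 and -1.40. TRIB1, a pseudokinase that promotes breakdown of C/EBP factors, differed by -2.27 and stood 1.07 above DMSO with torcetrapib. Of its other probe sets, which read 3.93 and 3.24 on average against 9.97 for the brightest, the differences were -0.04 and -0.10. NFIL3, a repressor that acts on clock genes, differed by -1.91, and CCN1, a secreted matrix protein, by -1.04.

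The cAMP and CREB targets, genes that the factor CREB drives after calcium or cAMP signals, overlap with these genes. Of 18 measured members 12 were higher with angiotensin II and none with torcetrapib (median -0.64), 10 with the index in the model. For 4 of the 12 the probe sets disagreed, SIK1 among them: this salt-inducible kinase, which restrains steroid production, read 8.83, 8.84 and 8.83 with torcetrapib and 9.93, 9.83 and 9.93 with angiotensin II by its brighter probe set. The other probe set differed by 0.10. The brighter set stood at 7.21, 6.81 and 7.25 with DMSO, below both treatments.

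Promoters from RefSeq (GRCh38.p14) are shown for 4 immediate early factors that agree, passed the threshold and hold a match to a full cAMP response element, the CRE, or to a CArG box, the site of serum response factor. MAFF was reached by the rule that fixed the shown promoters, and EGR1, JUND and SRF were added after their values had been seen. Each run gives the 250 bases before the transcription start, 5′ to 3′ on the gene's strand, with the matches in capitals. They lie at chr22:38201744-38201993 (plus strand, MAFF), chr19:18281623-18281872 (minus strand, JUND), chr5:138465229-138465478 (plus strand, EGR1) and chr6:43171019-43171268 (plus strand, SRF).
MAFF: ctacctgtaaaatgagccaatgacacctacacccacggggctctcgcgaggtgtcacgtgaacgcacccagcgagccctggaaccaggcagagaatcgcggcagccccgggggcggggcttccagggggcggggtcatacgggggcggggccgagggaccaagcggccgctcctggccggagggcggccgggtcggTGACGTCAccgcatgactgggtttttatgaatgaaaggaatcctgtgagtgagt
JUND: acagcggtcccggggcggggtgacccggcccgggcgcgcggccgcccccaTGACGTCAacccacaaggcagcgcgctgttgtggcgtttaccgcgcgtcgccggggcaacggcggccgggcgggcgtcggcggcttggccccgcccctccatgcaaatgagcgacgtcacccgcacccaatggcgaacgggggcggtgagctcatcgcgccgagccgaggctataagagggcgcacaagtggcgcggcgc
EGR1: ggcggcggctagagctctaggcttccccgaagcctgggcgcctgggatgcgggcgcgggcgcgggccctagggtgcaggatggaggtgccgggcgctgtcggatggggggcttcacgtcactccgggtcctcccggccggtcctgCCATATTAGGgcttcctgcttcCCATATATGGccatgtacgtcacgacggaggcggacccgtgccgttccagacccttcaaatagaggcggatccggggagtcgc
SRF: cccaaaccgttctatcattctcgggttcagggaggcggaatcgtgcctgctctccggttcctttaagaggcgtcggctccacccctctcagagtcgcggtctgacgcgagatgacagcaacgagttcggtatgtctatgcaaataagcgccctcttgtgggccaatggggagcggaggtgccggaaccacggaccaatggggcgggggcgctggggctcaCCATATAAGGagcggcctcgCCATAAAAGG
The capitals mark the CRE, TGACGTCA, in MAFF (bases -54 to -47 from the start) and JUND (-200 to -193), and 2 CArG boxes each in EGR1 (-105 to -96 and -83 to -74) and SRF (-30 to -21 and -10 to -1).

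EGR1, a zinc finger factor of the serum response, was at 13.20, 13.44 and 13.30 with angiotensin II, at 12.09, 12.17 and 12.27 with torcetrapib and at 11.95, 12.31 and 12.07 with DMSO. Its 3 probe sets differed by -2.98 to -0.78. JUND, an AP-1 subunit, differed by -0.74 and SRF, the factor that binds CArG boxes, by -0.83. For all 3 genes the torcetrapib arrays lay within the DMSO range: torcetrapib minus DMSO was 0.07 for EGR1, -0.04 for JUND and 0.03 for SRF, and none passed. Of the 14 immediate early factors that agree and passed, 13 had a promoter in the table, 2 with a CRE and 2 with a CArG box in the 300 bases from 250 before to 50 after the start, read on both strands.

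Over all genes the short motifs were not common on either side. A promoter was matched for 15384 of 19775 genes, and 2.67% of these held the CRE, against 3.76% of the genes higher with angiotensin II and 3.16% of those higher with torcetrapib. The CArG box was in 1.22% of all, in 1.32% of those higher with the hormone and in 0.922% of those higher with the drug. The AP-1 site TGANTCA was in 5.84%, 6.11% and 3.95% in the same order. The NR4A site AAAGGTCA was in 0.897%, 0.564% and 1.05%, and the SF-1 site CAAGGTCA, which ends in the same AAGGTCA, was in 1.01%, 0.282% and 1.19%. These are descriptions of letters in a short window, with no test.

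Some secreted ligands and activity-dependent genes, which cells release or make in response to calcium entry, were higher with the hormone, and most members of both lists did not pass. HBEGF, an EGF receptor ligand, read 9.41, 9.15 and 9.36 with angiotensin II, 6.86, 6.79 and 6.91 with torcetrapib and 6.78, 6.59 and 6.79 with DMSO, 5.47-fold between the treatments. LIF, a cytokine of the IL-6 family, was 5.46-fold apart, with torcetrapib at 5.53, 5.57 and 5.67 and DMSO at 5.69, 5.57 and 5.68. The drug's arrays of LIF overlapped the vehicle, and those of HBEGF lay at its upper edge, 0.13 above it on average (adjusted p = 0.569). The probe sets of HBEGF ran from -2.45 to -0.07. Of 21 measured EGF-family ligands, cytokines and chemokines 4 were higher with angiotensin II and none with torcetrapib, and 4 with the index. CXCL2 and VEGFA of these have probe sets that disagree, and the list's median was -0.11.

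Among 20 activity-dependent neuronal and neuropeptide genes 8 were higher with angiotensin II and none with torcetrapib (median -0.13), 5 with the index. ARC, a synaptic protein, read 8.08, 7.91 and 8.36 with angiotensin II, 5.93, 5.78 and 5.77 with torcetrapib and 5.77, 5.65 and 5.56 with DMSO. TAC1, the precursor of substance P, read 7.71, 7.28 and 7.89 with the hormone, 4.77, 5.31 and 4.82 with the drug and 4.02, 3.92 and 4.37 with the vehicle. TAC1 differed by -2.66, and it was 0.86 above the vehicle with torcetrapib (adjusted p = 0.0214). Its DMSO arrays and 2 of its torcetrapib arrays lay below 4.87, the limit of the lowest 25% of genes, where a reading may be background, so no fold is given. INHBA, the activin A subunit, differed by -1.97, and its 3 probe sets ran from -1.97 to -0.23. SCG2, a granule protein, differed by -0.48 (adjusted p = 0.0408), and its call was lost without angiotensin II replicate 1 or 3, torcetrapib replicate 1 or 2, or DMSO replicate 3.

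Inhibitors that damp kinase and G protein signals formed the next group: 14 of 24 were higher with angiotensin II and DUSP6 alone with torcetrapib, with a median of -0.28, and 7 and 1 with the index. The probe sets of 4 of the 14 disagree. DUSP2, a nuclear phosphatase of MAP kinases, was 3.05-fold higher with the hormone, and ERRFI1, which blocks the EGF receptor, 2.80-fold. Torcetrapib minus DMSO was -0.20 for DUSP2 (adjusted p = 0.394) and 0.25 for ERRFI1 (adjusted p = 0.0351). DUSP6, the cytoplasmic phosphatase of ERK, went the other way. It read 11.27, 11.03 and 11.17 with DMSO, 10.53, 10.46 and 10.57 with torcetrapib and 9.41, 9.41 and 9.40 with angiotensin II. It fell by 1.75 with the hormone and fell by 0.63 with the drug, and the difference between them was 1.12 ± 0.06 (adjusted p = 2.11e-09). Its 3 probe sets differed by 0.86 to 1.12.

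NF-kappa-B regulators and mRNA decay factors were, where they passed, mostly higher with the hormone. Of 14 NF-kappa-B regulators 7 were higher with angiotensin II and none with torcetrapib (median -0.20), but 1 with the index, and RELA among the 7 has probe sets that disagree. NFKBIZ, a nuclear inhibitor protein that steers NF-kappa-B to secondary targets, read 11.48, 11.44 and 11.39 with angiotensin II, 8.35, 8.43 and 8.59 with torcetrapib and 7.91, 7.62 and 7.87 with DMSO. The 3 groups did not overlap, the treatments were 7.91-fold apart, and both probe sets differed by about the same amount, -2.98 and -3.09. REL and RELB, subunits of NF-kappa-B, differed by -0.68 and -0.66, and their calls were lost with the index in the model.

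Of 11 mRNA decay factors 5 were higher with angiotensin II and 1 with torcetrapib (median -0.14), 3 and 0 with the index. ZFP36, tristetraprolin, which marks short-lived messages for decay, read 11.21, 11.39 and 11.30 with angiotensin II, 9.24, 9.27 and 9.25 with torcetrapib and 8.97, 9.15 and 9.04 with DMSO. Its treatments were 4.14-fold apart, and torcetrapib minus DMSO was 0.20 (adjusted p = 0.13). Its relative ZFP36L2 was higher with both treatments than with DMSO, by 1.19 with the hormone and 0.58 with the drug. TOB2, which recruits a deadenylase, differed by -0.76, with torcetrapib at the vehicle level (0.03, adjusted p = 0.918). The probe sets of TOB2 ran from -0.82 to -0.04.

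Other genes of the 14 largest agreeing differences on the hormone's side have roles outside these lists. TENT5A, a poly(A) polymerase, differed by -2.17. PAQR9, of the membrane progesterone receptor family, differed by -1.98 and C11orf96, a gene of poorly known function, by -1.75, and all of these were raised by torcetrapib too, by 0.70, 0.79 and 0.90. TENT5A was at -0.07 and C11orf96 at -0.14 without _x_at and _s_at probe sets, and neither passed there. For TENT5A that value is from the brighter of its remaining probe sets (mean level 6.07). The other, at a mean level of 5.91, differed by -2.37. LYVE1, a hyaluronan receptor, differed by -1.71, and torcetrapib minus DMSO was 0.16 (adjusted p = 0.624).

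**Figure D3:**
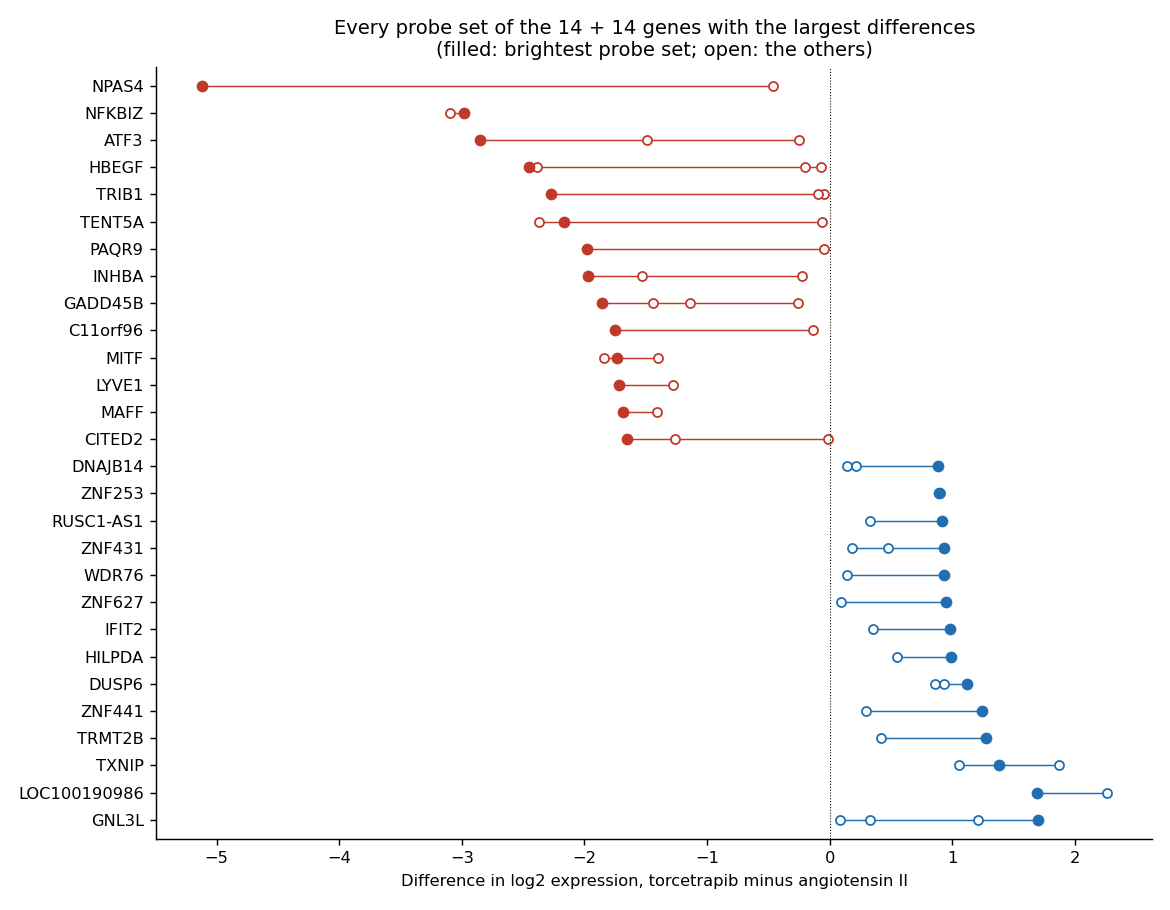
Difference in log2 expression, torcetrapib minus angiotensin II, for every probe set of the 14 genes with the largest agreeing differences on each side (filled, the brightest; open, the others). MITF, LYVE1, MAFF, DUSP6 and TXNIP have all their probe sets well away from 0, while the second probe set of PAQR9 lies at -0.05 and the nearest of CITED2 at -0.02.

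Genes of the calcium signal itself gave few agreeing differences. Of 35 calcium and calcineurin genes 8 were higher with angiotensin II and 1 with torcetrapib (median -0.13), 3 and 0 with the index, and for 5 of them, RCAN1 included, the probe sets disagreed. RCAN1, which binds calcineurin and is induced by it, read 10.25, 10.16 and 10.29 with angiotensin II and 9.52, 9.52 and 9.46 with torcetrapib by its brightest probe set, with DMSO at 9.54, 9.36 and 9.54. Its other probe sets differed by 0.19 and -0.08, of which the -0.08 is left without _x_at and _s_at probe sets and did not pass. The 3 of this list that did not disagree on the hormone's side were GEM, NFATC4 (-0.31) and MEF2D (-0.28). The NFATC4 and MEF2D calls were lost with the index and without angiotensin II replicate 1 or 2 or torcetrapib replicate 1 or 3, and that of MEF2D also without angiotensin II replicate 3, torcetrapib replicate 2 or DMSO replicate 3. Of the 35, 12 had a 95% interval within 1.2-fold either way, against 41.1% of all genes.

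Among 19 genes of Gq, phospholipase C and protein kinase C, the receptor's own pathway, DGKZ (-0.38) and GNA11 (-0.21) were higher with angiotensin II and the receptor gene AGTR1 higher with torcetrapib, none with the index, and 10 of 19 had an interval within 1.2-fold. Over all genes the shares were 6.68% higher with angiotensin II and 4.61% with torcetrapib. DGKZ removes diacylglycerol and GNA11 is a Gq-family subunit. They were at -0.16 and -0.10 without _x_at and _s_at probe sets, and neither passed there. The call of GNA11 was lost without angiotensin II replicate 1 or 3 or any torcetrapib replicate. AGTR1 read 11.69, 11.68 and 11.69 with angiotensin II, 11.94, 11.93 and 11.93 with torcetrapib and 11.92, 12.12 and 11.98 with DMSO. All hormone arrays of AGTR1 were thus below the drug's, by 0.24 ± 0.04 (adjusted p = 0.00145), and its second probe set differed by 0.57. With the index the difference was 0.08 and did not pass.

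Stress and growth arrest genes divided between the treatments. Of 24 ER stress and unfolded protein response genes 9 were higher with angiotensin II and 3 with torcetrapib (median -0.08), 4 and 0 with the index, with 1 on each side whose probe sets disagree. The members that passed on the hormone's side were led by PPP1R15A, the phosphatase subunit also known as GADD34 (3.01-fold), and DDIT3, the factor CHOP (1.69-fold), for both of which torcetrapib did not pass against DMSO. CHAC1, an enzyme that degrades glutathione, differed by -0.60, which did not pass with the index. HSPA5, the main ER chaperone, differed by -0.01. Of 11 heat shock genes DNAJB1 (-0.79) and BAG3 (-0.22) were higher with the hormone and none with the drug (median -0.03), DNAJB1 alone with the index, and 8 had an interval within 1.2-fold.

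Of 20 oxidative stress and xenobiotic response genes 6 were higher with angiotensin II and 1 with torcetrapib (median -0.09), 3 and 0 with the index, and SLC7A11 on the hormone's side has probe sets that disagree. TIPARP, an ADP-ribosyltransferase and target of the aryl hydrocarbon receptor, was 0.84 above DMSO with torcetrapib and 1.97 with angiotensin II. SRXN1, sulfiredoxin, differed by -0.32 and lost its call with the index. HMOX1, heme oxygenase, differed by -0.33, and its call was lost without angiotensin II replicate 1 or 3 or any torcetrapib replicate.

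Of 17 growth arrest and glucose uptake genes 6 were higher with angiotensin II and 5 with torcetrapib, 4 and 4 with the index, with 1 on each side whose probe sets disagree and a median of -0.09. GADD45B, a growth arrest and stress protein, read 9.99, 9.82 and 10.12 with angiotensin II, 8.14, 8.19 and 8.02 with torcetrapib and 8.10, 7.90 and 8.19 with DMSO. The drug was thus at the vehicle level and the hormone 3.63-fold above the drug by the brightest of 4 probe sets, which ran from -1.86 to -0.26. The last of these alone is left without _x_at and _s_at probe sets, and did not pass. CITED2, a coactivator-binding protein, differed by -1.65, and its smallest difference among 3 probe sets was -0.02.

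TXNIP, an arrestin that slows glucose uptake and binds thioredoxin, had the largest difference of this list on the drug's side. It read 9.20, 9.13 and 9.34 with DMSO, 8.72, 8.81 and 8.61 with torcetrapib and 7.38, 7.25 and 7.36 with angiotensin II. It fell by 1.89 with the hormone and fell by 0.51 with the drug, which was 2.61-fold above the hormone (1.38 ± 0.08, adjusted p = 6.1e-09). Its 3 probe sets differed by 1.05, 1.38 and 1.87. ARRDC4, a related arrestin, and DDIT4L, an inhibitor of mTOR signalling, were also highest with DMSO and lowest with angiotensin II, with differences of 0.75 and 0.81. ARRDC4 and DDIT4L have a single probe set and were chosen for naming after their values were seen.

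HILPDA, a lipid droplet protein induced by hypoxia, was lower with the hormone alone. It read 7.55, 7.22 and 7.66 with angiotensin II, 8.46, 8.46 and 8.49 with torcetrapib and 8.34, 8.34 and 8.42 with DMSO. The torcetrapib arrays were above the DMSO arrays by 0.10 (adjusted p = 0.717), and both probe sets of HILPDA differed between the treatments, by 0.55 and 0.99.

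Genes of developmental signalling had differences on both sides. Of 18 Notch pathway genes 3 were higher with angiotensin II and 1 with torcetrapib (median -0.11), against 6.68% and 4.61% of all genes. With the index 1 and 1 passed. HES1, the repressor that Notch induces, read 9.50, 9.34 and 9.37 with DMSO, 8.71, 8.67 and 8.59 with torcetrapib and 8.15, 7.82 and 8.19 with angiotensin II. It was lowered by both and differed by 0.60 ± 0.09 (adjusted p = 0.000328), with probe sets from 0.02 to 0.77, of which the 0.02 alone is left without _x_at and _s_at probe sets and did not pass. NRARP, a feedback inhibitor of Notch, differed by -1.15 and HEY2, a HES relative, by -0.74, and torcetrapib passed against DMSO for neither. HEY2 lost its call with the index and, at -0.33, without _x_at and _s_at probe sets.

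Of 20 BMP, activin and ID genes 4 were higher with each treatment (median 0.04), 1 and 1 with the index. Of those on the hormone's side 2 have probe sets that disagree. ID3, a dominant negative bHLH protein, read 8.20, 8.05 and 8.34 with angiotensin II, 8.90, 8.88 and 8.82 with torcetrapib and 9.06, 9.19 and 9.32 with DMSO. The groups of ID3 values did not overlap, and its difference of 0.67 did not pass with the index. BMP4, a secreted growth factor, differed by 0.51, and INHA, the inhibin subunit, by -0.37. The call of INHA was lost without angiotensin II replicate 1 or 3 or any torcetrapib replicate. GATA3, a zinc finger factor of the sympathoadrenal lineage, read 8.78, 8.50 and 8.76 with DMSO, 8.10, 8.03 and 8.08 with torcetrapib and 7.37, 7.31 and 7.65 with angiotensin II. Its 3 probe sets were higher with the drug than with the hormone by 0.17 to 0.81, and without _x_at and _s_at probe sets the 0.17 did not pass.

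Of 16 interferon response genes IFIT1, IFIT2 and IFIT3, antiviral proteins encoded side by side, were higher with torcetrapib and OAS2 (-0.39) with angiotensin II (median -0.03), 1 and 0 with the index. IFIT2 read 6.16, 6.21 and 6.15 with angiotensin II, 7.04, 7.31 and 7.12 with torcetrapib and 7.40, 7.36 and 7.66 with DMSO. The drug did not pass against DMSO (-0.32, adjusted p = 0.156), and angiotensin II minus DMSO was -1.30. IFIT3 differed by 0.62. The call of OAS2 was lost when any of the 6 compared arrays was left out.

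Steroid production, for which the line is used, gave differences of small size at the level of these messages, though a larger share passed than of all genes. Of 17 measured steroidogenesis genes 4 were higher with angiotensin II and 1 with torcetrapib, against 6.68% and 4.61% of all genes. FDX1 alone passed with the index. The list's median was -0.11, against -0.04 over all genes, and 6 of the 17 had an interval within 1.2-fold, against 41.1% of all. CYP17A1 among the 4 has probe sets that disagree. FDX1, ferredoxin, which feeds electrons to mitochondrial steroid enzymes, read 11.48, 11.80 and 11.64 with DMSO, 11.98, 12.04 and 11.99 with torcetrapib and 12.28, 12.22 and 12.39 with angiotensin II. Both treatments raised it, by 0.37 and 0.66, and the difference was -0.29 ± 0.06 (adjusted p = 0.00605). Its 3 probe sets differed by -0.46 to -0.29. POR, the electron donor of microsomal steroid enzymes, differed by -0.24.

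STAR, the carrier that brings cholesterol into mitochondria, read 12.05, 11.98 and 12.11 with angiotensin II, 11.93, 11.93 and 11.88 with torcetrapib and 11.79, 11.88 and 11.85 with DMSO. Its difference was -0.13 ± 0.04 (adjusted p = 0.0423). The call did not hold with the index, nor without angiotensin II replicate 1 or 3, any torcetrapib replicate or DMSO replicate 3. CYP17A1, which makes cortisol precursors, differed by -0.20 (adjusted p = 0.0395) by its brighter probe set and 0.11 by the other, and its call was lost without angiotensin II replicate 2 or 3 or any torcetrapib replicate.

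The terminal enzymes did not pass. CYP11B2, aldosterone synthase, read 5.95, 5.62 and 6.28 with angiotensin II, 5.79, 5.93 and 5.80 with torcetrapib and 5.41, 5.82 and 5.86 with DMSO, with overlapping groups. Its difference was -0.11, with a 95% interval from -0.43 to 0.21 that leaves room for a difference in either direction. CYP11B1, the cortisol-forming hydroxylase, differed by -0.21 (interval -0.40 to -0.02, adjusted p = 0.162). Its brightest probe set averaged 4.34, in the lowest 25% of genes, where a reading may be background. The intervals of CYP11A1 (-0.19 to -0.01), which cleaves the cholesterol side chain, and HSD3B2 (-0.04 to 0.23), which forms progesterone, lay within 1.2-fold either way. MC2R, the ACTH receptor, differed by -0.21 with probe sets that disagree, and NR5A1, the factor SF-1, by 0.20, and neither passed. CYP21A2 was not analysed here. CETP, the target of the drug, read between 3.72 and 4.25 on all 9 arrays, in the lowest 25% of genes, and differed by -0.03.

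**Figure D4:**
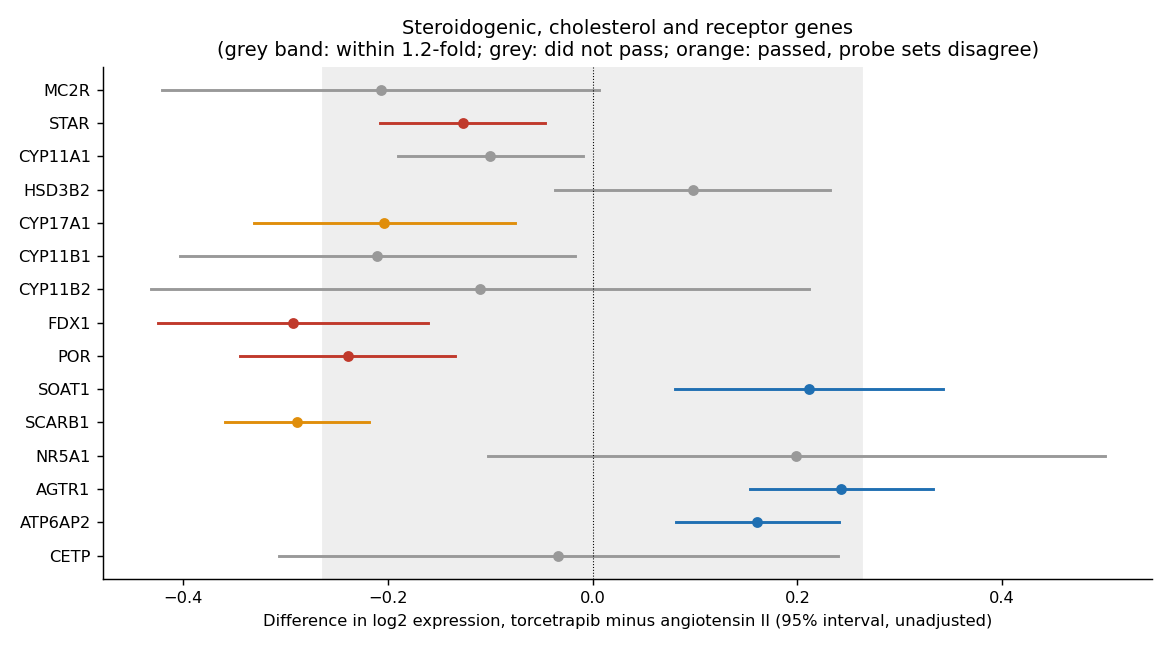
Difference in log2 expression, torcetrapib minus angiotensin II, with its unadjusted 95% interval, for steroidogenic, cholesterol and receptor genes. The shaded band is 1.2-fold either way: FDX1, at -0.29, and POR are on the hormone's side, AGTR1, at 0.24, on the drug's, and the interval of CYP11B2 reaches beyond the band on the hormone's side.

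Cholesterol genes gave few agreeing differences. Of 19 cholesterol synthesis genes 7 were higher with angiotensin II and 1 with torcetrapib (median -0.07), none with the index, and for 6 of these 8, HMGCS1 and SQLE included, the probe sets disagreed. The other members were FASN, fatty acid synthase (-0.57, and -0.08 by its second probe set), and MSMO1, a sterol oxidase (-0.21). FASN is counted in this list although it makes fatty acids and not cholesterol. FASN read 9.03, 9.15 and 9.05 with angiotensin II, 8.60, 8.59 and 8.31 with torcetrapib and 9.09, 8.75 and 9.13 with DMSO, so the drug's arrays stood below both, with torcetrapib minus DMSO at -0.49 (adjusted p = 0.0217). Of 18 genes of cholesterol uptake, storage and efflux 2 were higher with angiotensin II and 1 with torcetrapib (median -0.08), 1 and 0 with the index. The 2 have probe sets that disagree, among them SCARB1, the HDL receptor, at -0.29 by its brightest set and from -1.002 to 0.02 by the others. SOAT1, which esterifies cholesterol, differed by 0.21 (adjusted p = 0.0375) by its brightest probe set. Its other probe sets differed by 0.008 and 0.08, and the mean of its probe sets, at 0.10, did not pass. The call of SOAT1 was lost without angiotensin II replicate 2 or 3 or any torcetrapib replicate.

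Among 11 components of the renin-angiotensin-aldosterone system, AGTR1 included, 1 was higher with angiotensin II and 2 with torcetrapib (median 0.02), none with the index. ATP6AP2, the prorenin receptor, differed by 0.16 in 3 agreeing probe sets and lost its call without torcetrapib replicate 1. MAS1, the receptor of angiotensin 1-7, differed by -0.33 at levels from 3.89 to 4.38, in the lowest 25% of genes, and lost its call without angiotensin II replicate 1 or 2 or torcetrapib replicate 1 or 2. Of 16 zona glomerulosa and WNT markers 2 were higher with each treatment (median -0.01), none with the index. SFRP1, a WNT antagonist (-0.64), and ATP1B1, a sodium pump subunit (-0.42), were on the hormone's side, and APCDD1, another WNT inhibitor, differed by 0.16. The call of APCDD1 was lost without torcetrapib replicate 2.

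Of 15 CCN proteins and YAP targets 5 were higher with angiotensin II and none with torcetrapib (median -0.10), 3 with the index, and LATS2 has probe sets that disagree. F3, tissue factor, differed by -1.34 and CCN2, the relative of CCN1, by -0.85. Of 15 clock genes 4 were higher with angiotensin II and 2 with torcetrapib (median -0.08), 3 and 0 with the index, and of these 1 on the hormone's side and both on the drug's side have probe sets that disagree. BHLHE40, a clock repressor, differed by -0.88 with torcetrapib at the vehicle level (0.01), and by -0.05 by its other probe set. CRY1 differed by -0.24, a call lost without angiotensin II replicate 1 or 3 or any torcetrapib replicate. Of 23 cell cycle genes 2 were higher with each treatment (median 0.04), beside 6.68% and 4.61% of all genes. With the index 1 and 2 passed, and 16 of the 23 had an interval within 1.2-fold. The cyclin-dependent kinase inhibitors among these went opposite ways: CDKN1A differed by -0.79 and CDKN1B by 0.56, in both cases with torcetrapib at the vehicle level (0.08 and 0.03, neither passing) and the hormone apart. E2F1, a cell cycle factor, differed by -0.32 and lost its call with the index.

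Of 21 respiratory chain genes none was higher with angiotensin II and 4 with torcetrapib (median 0.03), none with the index, and 20 had an interval within 1.2-fold. SDHD and ATP5F1A have probe sets that disagree, and the other members were COX5A (0.16, and 0.03 without _x_at and _s_at probe sets) and SDHA (0.17, a single probe set), subunits of complexes IV and II. Of 13 histone genes 2 were higher with each treatment (median 0.10), none with the index, and H2AX on the hormone's side has probe sets that disagree. H1-3, a linker histone, read 8.48, 7.64 and 8.44 with angiotensin II, 9.79, 9.54 and 9.57 with torcetrapib and 8.46, 8.72 and 8.12 with DMSO. Its torcetrapib arrays were above all others, by 1.45 over angiotensin II. H1-2 differed by 0.30 and H1-10 by -0.18, and the H1-10 call was lost without any angiotensin II replicate, torcetrapib replicate 1 or 3, or DMSO replicate 1 or 3.

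The largest differences on the drug's side moved with the index. GNL3L, a nucleolar GTPase, read 7.48, 7.18 and 7.63 with angiotensin II, 8.98, 9.32 and 9.10 with torcetrapib and 7.45, 9.20 and 7.45 with DMSO. DMSO replicate 2, whose index lay with torcetrapib, thus had the torcetrapib level of GNL3L and the other DMSO arrays the angiotensin II level. TRMT2B, a tRNA methyltransferase, had the same arrangement, with DMSO at 6.05, 7.46 and 5.93, torcetrapib at 7.36, 7.48 and 7.36 and angiotensin II at 6.11, 6.17 and 6.10. So did GTF2I, a general transcription factor with near-identical copies in the genome, with DMSO at 6.99, 8.76 and 7.55. For LOC100190986, a non-coding transcript, DMSO replicate 2 was at 8.73 and the torcetrapib arrays at 8.29, 7.72 and 8.82.

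With the index in the model the difference of GNL3L went from 1.70 to 0.19, that of LOC100190986 from 1.69 to 0.33, that of TRMT2B from 1.27 to 0.09 and that of GTF2I from 1.58 to 0.07, and all 4 calls were lost. The call of LOC100190986 was also lost without torcetrapib replicate 3. By contrast NPAS4 went from -5.12 to -5.45, NFKBIZ from -2.98 to -2.75, ATF3 stayed at -2.86, TXNIP went from 1.38 to 1.44 and DUSP6 from 1.12 to 1.32, and these kept their calls. For the 4 genes whose calls were lost, RNA quality and treatment cannot be told apart in these arrays. The index term rests largely on the DMSO arrays, so the part of RNA quality in the kept differences was not tested by it.

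**Figure D5:**
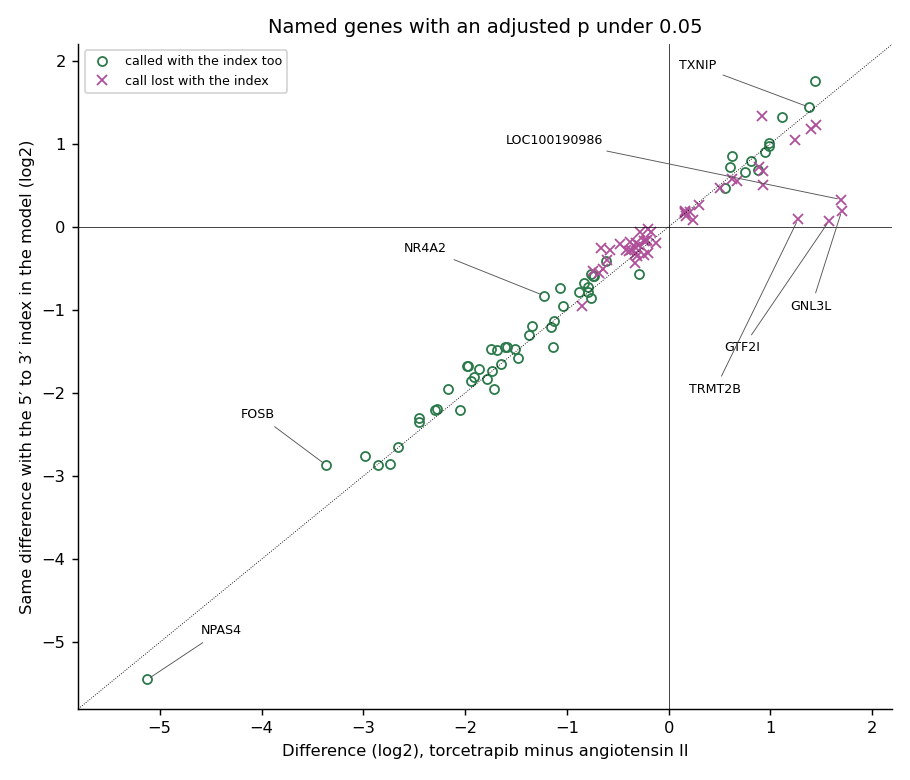
Difference in log2 expression, torcetrapib minus angiotensin II, for the named genes past the threshold, from the model of group means (horizontal) and after adding the 5′ to 3′ index (vertical); the dotted line marks equal values. NPAS4 and TXNIP lie near the line, while GNL3L, LOC100190986, GTF2I and TRMT2B fall to between 0.07 and 0.33.

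Of the remaining single-probe-set genes highest with torcetrapib, ZNF658 read 4.90, 4.64 and 5.25 with angiotensin II, 6.33, 6.45 and 6.33 with torcetrapib and 6.83, 6.40 and 6.91 with DMSO, so the hormone alone stood apart, and its difference of 1.44 held with the index (1.75). GTF2H2B, a pseudogene-like copy of a transcription factor subunit, differed by 1.40 and lost its call with the index. Both have near-identical relatives whose transcripts the probes could also bind. Agreeing genes on this side included DNAJB14, a chaperone partner (0.88), WDR76 (0.93), RUSC1-AS1, an antisense transcript (0.92), and 4 zinc finger genes, ZNF441 (1.24), ZNF627 (0.95), ZNF431 (0.93) and ZNF253 (0.89). DNAJB14 and ZNF627 kept their calls with the index and the others lost them, but without _x_at and _s_at probe sets DNAJB14 was at 0.22 and ZNF627 at 0.09 and neither passed. The call of WDR76 was lost without angiotensin II replicate 2 or torcetrapib replicate 1 or 2, and that of RUSC1-AS1 without angiotensin II replicate 1 or torcetrapib replicate 1 or 3.

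Markers of cell types were compared as a check of the label. Of 11 adrenocortical markers measured 10 were above the median gene, with a mean level between 9.92 and 10.1 on all arrays. Of 9 adrenal medulla markers 4 were in the lowest 25% of genes, and their mean level ran from 5.44 to 5.51 with angiotensin II and from 5.43 to 5.51 with torcetrapib, with none past the threshold. Of 15 fibroblast, endothelial and immune markers 7 were in the lowest 25%, with mean levels from 4.75 to 4.93 and from 4.71 to 4.75, and COL3A1 alone passed, with probe sets that disagree. In the wider list of 12 medulla and sympathetic genes SCG2 and GATA3 passed, in opposite directions (median -0.02), 0 and 1 with the index. Of the adrenocortical markers 5 were higher with angiotensin II and 1 with torcetrapib (median -0.13), 1 and 1 with the index, and 3 of these 6 disagreed.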

How the data were processed

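Expression was measured on 9 Affymetrix arrays of 54675 probe sets. The deposited values are log2 expression made by the authors with RMA (robust multi-array averaging), per the submitters' processing notes (version and probe set definition not given in the sources used here). Biotin-labelled targets were made from column-purified RNA, per the labels' protocols. No normalisation was added. Control probe sets (62) and those with several symbols (1801) or none (11721) did not enter the gene tests, and 41091 with 1 symbol gave 19775 genes, each read from its brightest set by the mean of all 9 arrays, which does not depend on group.

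The treatments were compared in limma 3.58.1 (R 4.3.3): 1 model of 3 group means on all 9 arrays, 6 residual degrees of freedom, eBayes with an intensity trend, two-sided p adjusted by Benjamini-Hochberg, threshold 0.05. The script was tested on simulated data. Intervals are 95% and unadjusted. The number of arrays limits the precision.

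The comparison and the 29 gene lists (496 of 544 members measured, 48 not analysed here) were chosen with earlier results of these data known. Genes are named if among the 14 largest differences per direction that agree, the 4 largest with a single probe set, or the 3 largest of a list that do not disagree, together with a set of steroid, NR4A and feedback genes. EGR1, JUND, SRF, SCARB1, ARRDC4 and DDIT4L, and members named only in passing, were added after values were seen. Serial numbers in the titles run without a gap within groups and lie in separate blocks for the groups. The labels do not say what these numbers record, so any order they stand for cannot be told apart from treatment. The design text's description of angiotensin II as a CETP inhibitor has no counterpart in the labels and was left aside. Alternatives were other variance moderation, filters, scalings, probe set choices, array weights, the index as a term, a stricter threshold and leaving out each array.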

Additional observations from a re-analysis of the deposited data

Results flagged for a closer look

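Probe sets with no gene symbol or with several were outside the gene tests. When tested with limma in the same way, 407 of these 13522 probe sets (3.01%) passed an adjusted p of 0.05 between torcetrapib and angiotensin II, 156 higher with angiotensin II and 251 higher with torcetrapib. Of differences of at least 2-fold, 30 were higher with angiotensin II and 56 with torcetrapib. They were set apart because they carry signal that no gene-level comparison used.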

How the results depend on the processing

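Counts were compared with 2232 genes past the threshold, 1321 higher with angiotensin II, 911 higher with torcetrapib and 754 in agreement. Testing every probe set gave 4762, with 2968 higher with torcetrapib and 1708 in agreement. Array weights gave 6216, 3915, 2301 and 1771, the index in the model 280, 190, 90 and 130, and an adjusted p of 0.01 gave 1104, 668, 436 and 400. Without the intensity trend 532 were higher with torcetrapib, after a second quantile normalisation 2018 were higher with angiotensin II, and without _x_at and _s_at probe sets 450 were in agreement; the cause of these changes was not tested, beyond the larger number of tests for all probe sets. The share higher with angiotensin II, 59.2%, was 42.4% with the mean of probe sets, 37.7% with all probe sets, 66% after quantile normalisation, 67.9% with the index and 51.5% without angiotensin II replicate 3. Leaving out each array gave totals from 1351 to 2653, 764 to 1603 higher with angiotensin II, 531 to 1064 higher with torcetrapib and 470 to 880 in agreement. The index difference, 0.37, was 0.47 by ACTB and 0.28 by GAPDH alone, and 0.36 to 0.39 with each array left out. Of 112 named genes 105 passed and 46 of these kept their call under every alternative run for them. The index ended 48 calls, the stricter threshold 17, dropping the trend 16 and leaving out torcetrapib replicate 1 another 16. SIK1 reversed to 0.10 without _x_at and _s_at probe sets. No paired analysis was possible because the labels give no replicate numbers that the groups share. With 3 arrays per group, differences near 1.2-fold are at the limit of detection.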

Other observations

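Zinc finger genes of the ZNF symbol series, a set noticed after the values were seen and therefore given without a test, passed on the drug's side more than on the hormone's. Of 502 measured, 119 (23.7%) were higher with torcetrapib, against 4.61% of all genes, and 22 (4.38%) higher with angiotensin II, against 6.68% of all. Most passed on neither side, and among those with probe sets in agreement the counts were 47 and 8. Their median difference was 0.09, and 16 and 3 passed when the 5′ to 3′ index was a term of the model, with a median of 0.15. ZNF627, which kept its call with the index but not without _x_at and _s_at probe sets (0.09), read 8.54, 8.59 and 8.67 with DMSO, 8.49, 8.53 and 8.39 with torcetrapib and 7.39, 7.53 and 7.65 with angiotensin II, so the hormone alone stood apart by its brightest probe set. ZNF441 read 4.50, 4.71 and 4.75 with DMSO, 4.93, 5.13 and 5.36 with torcetrapib and 4.23, 3.62 and 3.83 with angiotensin II, and its call was lost with the index. The part of RNA quality in these differences was not tested further.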
